A study of Mus musculus with 3 samples.

Results

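Reg1, Reg3a, Reg3b and Reg3g are 4 of the 13891 genes in the deposited table, and were followed here through the cell classes of the mouse small intestine. The genes were chosen by name, as the Reg family members that are read in villus cells. All 4 had rows in the table. The data came from male ICR mice, an outbred strain, and each of 3 groups gave 1 droplet library of the combined intestinal cells of 6 mice. AOS 0 mice received water only. B + A 0 mice received 1 injection of busulfan, an alkylating drug used against leukaemia, at 40 mg/kg body weight when 3 weeks old, followed by water by gavage for 2 weeks. B + A 10 mice received the same busulfan dose and then alginate oligosaccharide (AOS), a short seaweed sugar chain, at 10 mg/kg body weight every day for 2 weeks. No library of mice given AOS without busulfan was analysed here. With 1 library per group no comparison between groups could be tested. All intervals below are 95% intervals that cover counting error only.

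Reg proteins are small secreted C-type lectins, made in the gut epithelium and in the pancreas. Reg3g binds peptidoglycan and kills Gram-positive bacteria near the villus surface, and Reg3b acts mainly on Gram-negative bacteria. Both are known targets of IL-22 signalling through STAT3, and their expression depends in part on MyD88, the adaptor of Toll-like receptors. Reg1 is studied as a growth factor of regenerating epithelium. Reg3a is the third Reg3 gene among the genes followed here, a close relative of the other Reg3 lectins.

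The 4 genes lie near each other on chromosome 6, where 6 Reg genes sit within 98 kb. On the GRCm38 build, Reg3b (ENSMUSG00000071356) spans chr6:78370657-78373466 and Reg3a (ENSMUSG00000079516) spans chr6:78380709-78383827. Reg1 (ENSMUSG00000059654) spans chr6:78422711-78428667, and these 3 genes are on the forward strand. Reg3g (ENSMUSG00000030017) spans chr6:78466269-78468872 on the reverse strand. The stretch just upstream of each RefSeq start is shown because Reg3b and Reg3g had nearly the same pattern over the cell classes while Reg1 had another. Each stretch runs from 150 bases before the start to 9 bases after it on the gene's own strand, in GRCm38.p6, at chr6:78425833-78425991 (Reg1), chr6:78380559-78380717 (Reg3a), chr6:78370735-78370893 (Reg3b) and chr6:78468866-78469024 (Reg3g, reverse strand). The stretches of Reg1 and Reg3b lie inside the gene spans above, which cover 3 and 4 transcripts, and other starts were not searched. A link between these letters and the levels was not tested. Capitals mark TATAAAA, and in Reg3b also a match to TTCNNNGAA, the letters of a STAT site.
Reg1: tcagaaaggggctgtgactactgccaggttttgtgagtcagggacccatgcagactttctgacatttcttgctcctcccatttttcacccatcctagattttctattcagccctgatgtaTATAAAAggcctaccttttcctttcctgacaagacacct
Reg3a: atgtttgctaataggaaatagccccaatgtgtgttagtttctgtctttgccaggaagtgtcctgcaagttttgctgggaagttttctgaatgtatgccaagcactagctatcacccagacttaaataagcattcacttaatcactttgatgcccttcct
Reg3b: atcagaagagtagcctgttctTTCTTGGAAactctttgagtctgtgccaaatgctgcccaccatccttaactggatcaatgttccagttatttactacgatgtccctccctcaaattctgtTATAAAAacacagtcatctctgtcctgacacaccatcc
Reg3g: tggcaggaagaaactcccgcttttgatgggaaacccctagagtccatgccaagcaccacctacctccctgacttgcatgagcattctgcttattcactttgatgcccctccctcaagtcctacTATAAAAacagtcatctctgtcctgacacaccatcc

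TATAAAA began 30 bases before the start in Reg1, 29 in Reg3b and 27 in Reg3g, and these letters were not found in the Reg3a window. The search read both strands from 250 bases before to 50 bases after each start, and 5.48% of 32851 mouse promoters of the same length held TATAAAA. TTCNNNGAA was found only in Reg3b of the 4 windows, 129 bases before the start, and 8.30% of all promoters held it. The longest run shared by any pair of the 4 windows was 29 bases in Reg3b and Reg3g, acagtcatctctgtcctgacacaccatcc, which began 20 bases before the start in both genes. Only these 2 of the 32851 promoters held it. Reg3a and Reg3g shared 14 bases, tcactttgatgccc, and the longest runs of the remaining pairs were 8 to 10 bases. Over whole transcripts the overlap was small. In Reg3b 0.446% of all 31-base words also occurred in another Reg gene, in Reg3g 0.231%, and in Reg1 and Reg3a none did. For Reg1, 5.70% of the words occurred in some other gene.

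The libraries held 4106 (AOS 0), 3195 (B + A 0) and 5352 (B + A 10) cells. Their depth differed, with median totals of 7371, 6407 and 3505 unique molecular identifiers (UMIs, counts of single RNA molecules) per cell. Between 17 and 34 cell barcodes were shared by each pair of libraries. Levels are given as UMIs of a gene per 10000 UMIs of the class. Since the kit reads 1 tag per molecule at the 3′ end, they count molecules and need no correction for gene length. Cells fell into 22 clusters, made without the Reg genes, and 11 classes were named from marker lists. The enterocyte classes were early cells (711), mid-villus cells (859), duodenal cells led by markers such as S100g (350), proximal cells (2026) and ileal cells led by markers such as Fabp6 (985). The proximal class was made of 2 clusters, 1043 Fabp1 enterocytes and 983 Slc5a12 enterocytes. A separate class of mature enterocytes was not named, because 4 of the 10 leading genes of the Slc5a12 cluster were proximal markers and 3 were mature markers. A cluster of 525 cells led by Fam151a, Plb1 and Slc34a2 also stayed unnamed. Crypt cells (3245), goblet cells (2878), Paneth cells (433) and T cells (379) were the other large classes.

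The 4 lectin genes together made up 16.2%, 16.8% and 13.2% of all UMIs in ileal enterocytes of the 3 libraries. Values of the libraries stand in the order of water only, busulfan, and busulfan with AOS throughout. In the other enterocyte classes they made up between 4.16% and 6.45%. In ileal cells nearly all of this was Reg3b and Reg3g. Among the named classes Reg1 was highest in duodenal enterocytes, Reg3a in the proximal class, and Reg3b and Reg3g both in ileal enterocytes. The plot of levels by class shows this in each library.

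**Figure D1:**
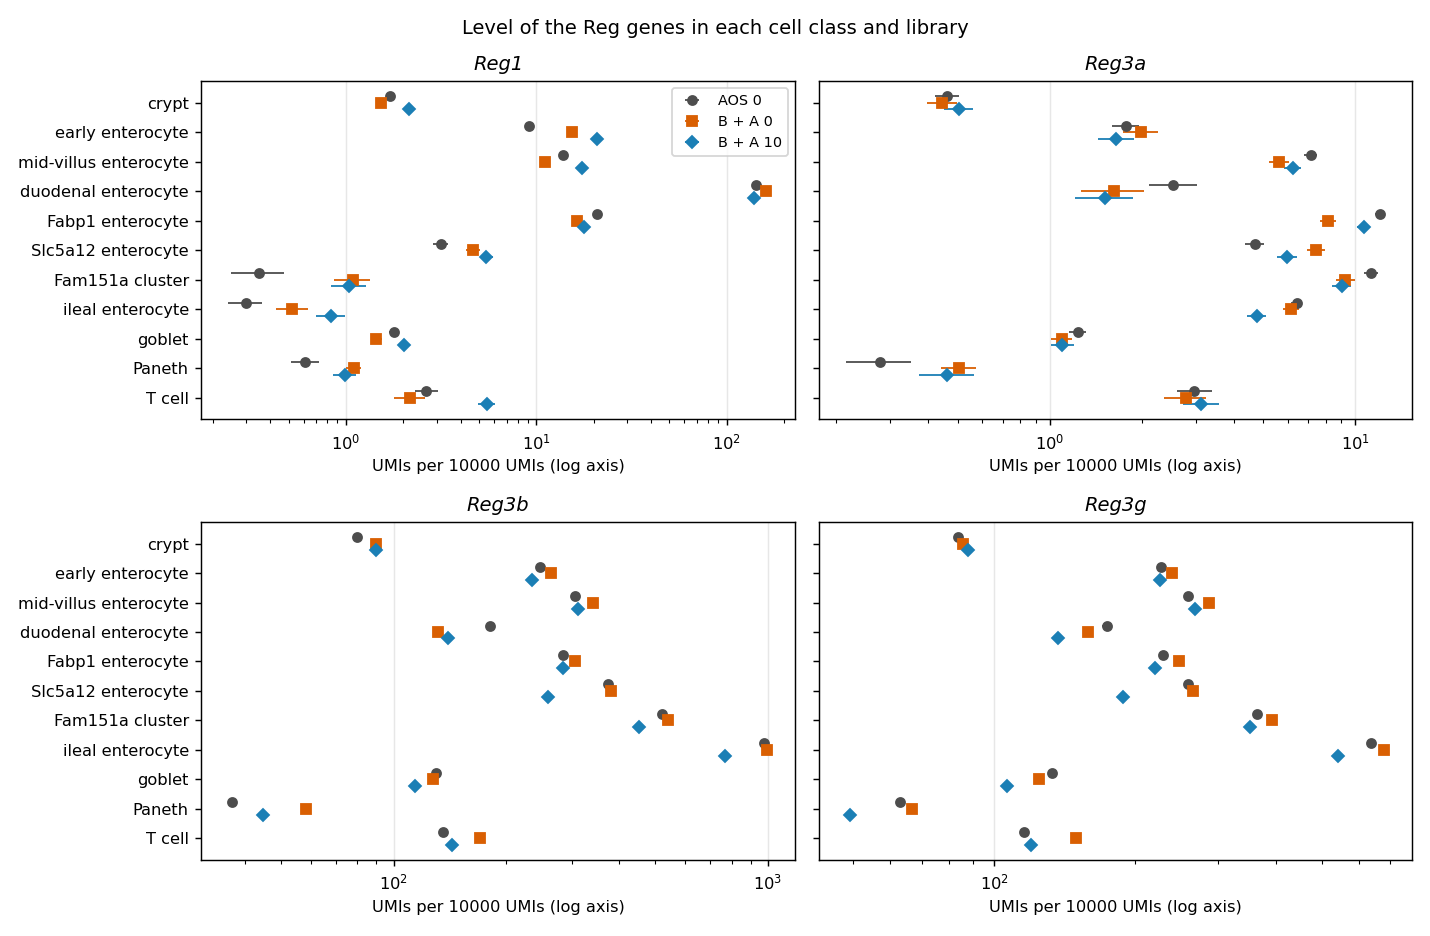
Level of each Reg gene (UMIs per 10000 UMIs, log axis) in each cell class, with 1 point per library and bars for the exact 95% Poisson interval. Reg1 stands at 139 to 161 in duodenal cells, and Reg3b at 768 to 997 in ileal cells, in all 3 libraries.

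Reg1 was highest in duodenal enterocytes. Its level in duodenal cells was 142, 161 and 139 UMIs per 10000 (mean 147 ± 12.1, SD, n = 3 libraries of different treatment), and none of the other named classes reached 21 in any library. Early cells stood next with 9.18, 15.4 and 20.9, a 9.72-fold lower mean. The intervals of the duodenal and early classes were apart in all 3 libraries. Early, mid-villus and proximal cells, by contrast, could not be put in a fixed order. Mid-villus cells had 13.8, 11.1 and 17.5, and the proximal class had 13.01, 10.8 and 12.5. In the proximal class Reg1 belonged to the Fabp1 cluster, with 20.9, 16.4 and 17.9, against 3.15, 4.66 and 5.47 in the Slc5a12 cluster. Ileal cells had 0.297, 0.524 and 0.835, under the level in T cells given further on.

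The few duodenal cells held a large part of all Reg1. They were 2.09%, 2.57% and 3.40% of the cells of each library but held 33.0%, 45.4% and 38.6% of its Reg1 UMIs. All enterocyte classes together held 79.97%, 82.2% and 83.1%. After each cell was thinned to 1000 UMIs, 95.3%, 100% and 98.4% of duodenal cells had a Reg1 UMI, and the highest cell spent 5.22% of its UMIs on this gene. Elsewhere Reg1 was a gene of some cells. In early cells 22.4%, 25.5% and 35.5% had a UMI after thinning, and the top 10% of cells held 83.5%, 75.1% and 69.3% of the class's Reg1. In the Fabp1 cluster 35.2%, 36.8% and 45.2% had a UMI.

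Reg3a was the scarcest of the 4 lectins over all enterocytes. Its level in the proximal class was 8.77, 7.81 and 8.62 (mean 8.40 ± 0.515), and in mid-villus cells 7.15, 5.64 and 6.24. The proximal class was higher in all 3 libraries with intervals apart, by 1.32-fold on the means. Ileal cells had 6.43, 6.16 and 4.75, and their order with mid-villus cells differed between libraries. Within the proximal class the Fabp1 cluster had 12.1, 8.15 and 10.6 and the Slc5a12 cluster 4.68, 7.43 and 5.96. The unnamed Fam151a cluster had 11.2, 9.29 and 9.05, more than the proximal class in all 3 libraries, though in B + A 10 the intervals overlapped. Early cells (1.78, 1.98 and 1.65) and duodenal cells (2.54, 1.62 and 1.52) had less, under the level of the T cell class given further on. Of the Fabp1 cluster 59.1%, 51.1% and 55.4% of cells had a UMI after thinning.

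Reg3b was the most abundant member. Ileal cells had 979, 997 and 768 UMIs per 10000 (mean 915 ± 127), which is close to 1 in 10 of their RNA molecules in the first 2 libraries. Mid-villus cells had 305, 341 and 312 and the proximal class 324, 341 and 272, and these neighbours did not hold 1 order. The ileal mean was 2.87-fold the mid-villus mean, with intervals apart in all 3 libraries. The unnamed Fam151a cluster lay between, with 521, 540.0 and 452. Early cells followed with 246, 264 and 234, and duodenal cells were lowest among enterocytes with 181, 131 and 139.6. Ileal cells at the 10th percentile still had 468, 558 and 341 per 10000, and those at the 90th had 1547, 1466 and 1229. The highest cell, of AOS 0, spent 23.5% of its UMIs on Reg3b.

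Reg3g was lower than Reg3b in ileal, mid-villus, proximal and early cells of all 3 libraries. Ileal cells had 639, 681 and 542 (mean 620.4 ± 71.2), 2.29-fold the mid-villus mean. Mid-villus cells had 259, 287 and 268, and stood above the proximal class (243, 257 and 206) with intervals apart in all 3 libraries. Early cells had 227, 239 and 226, so the proximal class and early cells did not hold 1 order. Duodenal cells had 174, 159 and 137, more than their Reg3b in B + A 0 and less in the other libraries.

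T cells, which should lack all of these lectins, served as the measure of free RNA and of cells caught together. Their median depth was 4376 UMIs, beside 5986 in ileal and 3846 in duodenal cells. They carried 2.65, 2.17 and 5.50 Reg1 UMIs per 10000, and 2.97, 2.78 and 3.13 for Reg3a. For Reg3b they carried 135, 170 and 143, and for Reg3g 116, 149 and 119.7. This was not the lowest level of the named classes. Enteroendocrine cells (155) carried 53.4, 53.2 and 80.6 for Reg3b, and 53.1, 51.6 and 76.7 for Reg3g. Tuft cells (29) carried 13.9, 258 and 25.4 for Reg3b, and 10.0, 173 and 17.9 for Reg3g. After thinning, 89.1%, 96.3% and 94.97% of T cells had a Reg3b UMI, and 12.6%, 14.8% and 21.2% a Reg1 UMI. Several low values above did not exceed the level of the T cell class. These were Reg1 in ileal, crypt, goblet and Paneth cells and, in B + A 10, in Slc5a12 cells, Reg3a in early, duodenal, crypt, goblet and Paneth cells, and Reg3b in crypt, goblet and Paneth cells. Reg3g in crypt cells (83.5, 85.9 and 87.9) and Paneth cells (62.8, 66.9 and 49.2) was also under the T cell level. A level per 10000 UMIs depends on depth, however, and Paneth cells were the deepest. They held 15186, 29350 and 10037 Reg3g UMIs in 99, 172 and 162 cells. T cells held 8925, 8263 and 7945 in 119, 81 and 179 cells. Counted per cell, Paneth cells thus had more Reg3g than T cells in each library. Whether Paneth cells make Reg3g was not tested. Goblet Reg3g (133, 125 and 107) was above the T cell level only in AOS 0. Duodenal Reg3b stood above that of T cells only in AOS 0, while duodenal Reg3g was higher than in T cells in all 3 libraries. The T cell class was made of 2 clusters with unlike levels. The cluster of 315 cells carried 152, 199 and 155 Reg3b UMIs per 10000 and 3.41, 3.62 and 3.67 for Reg3a. The cluster of 64 cells carried 57.5, 92.5 and 82.9 for Reg3b, 1.01, 0.588 and 0.454 for Reg3a, and 0.933, 0.784 and 1.18 for Reg1. Duodenal and goblet Reg3b, early, duodenal and goblet Reg3a, and crypt and goblet Reg1 were higher than in this smaller cluster in all 3 libraries, so that for these the reading depends on which T cells are taken. The goblet Reg1 level also leans on 1 of 5 goblet clusters. In this cluster of 388 cells, 55.4% were among the cells with the highest doublet scores. Its Reg1 was 7.05, 6.34 and 8.01, against 0.369 to 1.57 in the other goblet clusters. Goblet levels without it were not computed.

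Crypt cells had 80.1, 90.02 and 89.7 Reg3b UMIs per 10000, goblet cells 130, 128 and 114, and Paneth cells 37.0, 58.4 and 44.8. Median depth was 4376 UMIs in T cells, 5721 in goblet, 6298 in crypt and 17432 in Paneth cells. Among these classes alone this was the inverse order of the Reg3b levels. Enteroendocrine cells, with a median depth of 4495 and Reg3b at 53.4, 53.2 and 80.6, were outside that order. The part of depth in the Reg3b levels was not tested. The makeup of the low signal also differed between classes. Per UMI of 6 villus genes (Fabp1, Apoa1, Apoa4, Apoc3, Rbp2 and Fabp2), crypt cells had 3.17, 2.09 and 2.002 Reg3b UMIs and T cells 0.718, 0.802 and 0.685. Reg3b and these villus genes were thus not in 1 ratio in the 2 classes. Whether crypt cells make Reg3b was not tested.

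The position of a cell between duodenum and ileum went with its lectins over all enterocytes, and also within early and mid-villus cells. All enterocytes and the Fam151a cluster were ordered in each library by 28 ileal minus 23 duodenal markers, with no Reg gene among them, and split into 5 equal bins. These markers come from the lists that named the ileal and duodenal classes. The bins of all enterocytes are therefore not independent of the class levels above. From the duodenal to the ileal end Reg1 was 56.5, 7.81, 3.72, 0.753 and 0.370 in AOS 0. It was 77.6, 7.89, 3.35, 1.88 and 0.493 in B + A 0, and 75.2, 15.04, 7.25, 2.06 and 0.947 in B + A 10. Each library thus lost most of its Reg1 between the first and second bin. Reg3b went the opposite way and was higher in each next bin, with 189, 258, 365, 597 and 960.0 in AOS 0. It was 193, 259, 385, 560.1 and 988 in B + A 0, and 200.3, 252, 310, 368 and 701 in B + A 10. Reg3g followed, from 186, 190 and 182 in the first bin to 611, 668 and 490.2 in the last. Reg3a stayed between 3.95 and 7.502 in all bins and libraries.

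**Figure D2:**
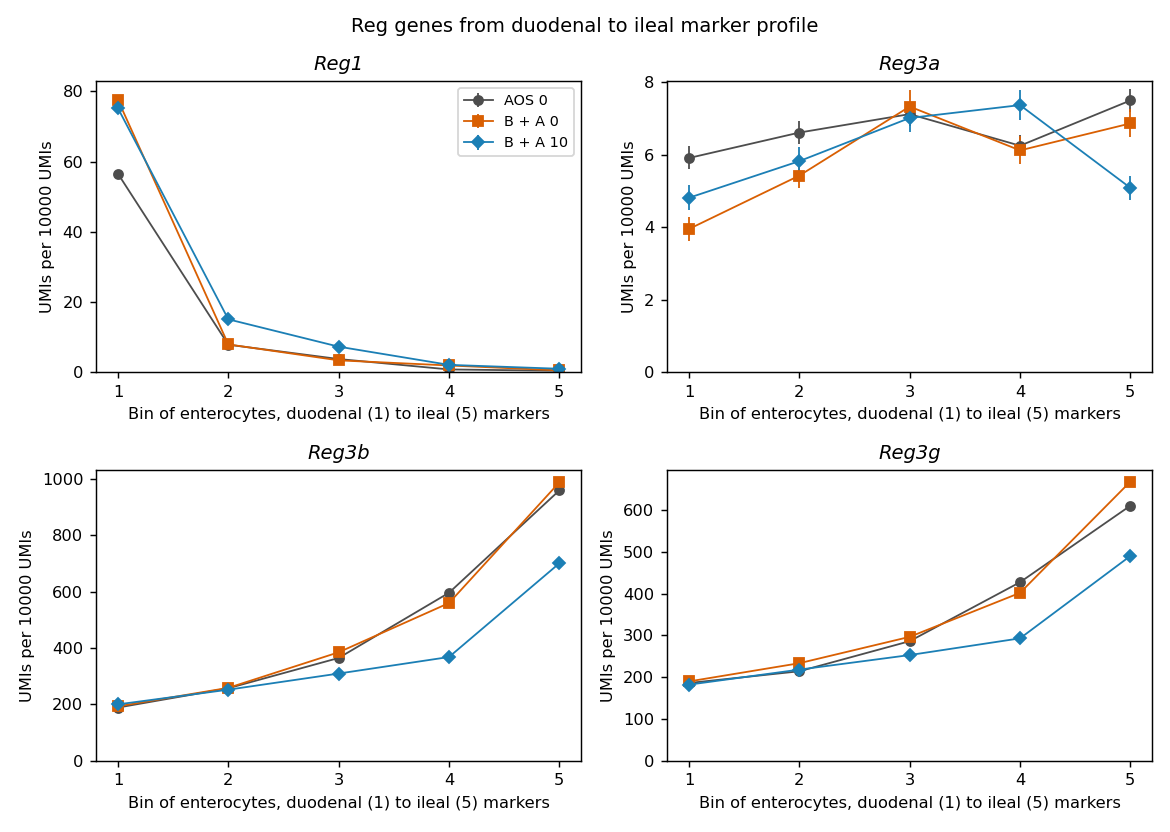
Level of each Reg gene (UMIs per 10000 UMIs) in 5 equal bins of enterocytes ordered from duodenal to ileal markers, by library, with exact 95% Poisson intervals. Reg1 drops from 56.5 to 77.6 in bin 1 to under 1 in bin 5, while Reg3b climbs from about 189 to 200.3 in bin 1 to 701 to 988 in bin 5.

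The same order was present in early cells, which have just left the crypt. They were split by the same markers into 3 equal parts per library. In the part with the most duodenal profile Reg1 was 23.4, 40.02 and 47.2, and in the part with the most ileal profile it was 1.06, 3.16 and 4.12. Reg3b in the same parts was 99.6, 119 and 151 at the duodenal side and 436, 456 and 362 at the ileal side. Regional differences of Reg1 and Reg3b were therefore present in early cells of each library. In mid-villus cells Reg1 was 31.02, 23.6 and 37.2 at the duodenal side and 2.54, 2.47 and 2.63 at the ileal side. Fabp6, one of the ordering markers, was 81.3, 53.4 and 40.55 in the most ileal part of early cells.

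Within single cells Reg3b and Reg3g varied together. The Spearman correlation across ileal cells of 1 library, after thinning to equal depth, was 0.83, 0.80 and 0.83, and across early cells 0.82, 0.87 and 0.83. In duodenal cells it was 0.69, 0.30 and 0.74. The correlation of Reg1 with Reg3b was -0.43, -0.43 and -0.25 in early cells and lay between -0.29 and -0.20 in mid-villus cells, and both genes have opposite regional profiles there. In ileal cells it lay between -0.04 and 0.02. In duodenal cells, where Reg1 was highest, it was -0.0042, 0.03 and 0.25, and that of Reg1 with Reg3g was 0.20, 0.27 and 0.24. Reg3a and Reg3b had values of 0.09 to 0.18 across ileal cells. These values are descriptions across cells that share a library, and carry no p.

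Reg3b and Reg3g did not keep 1 ratio across classes. Reg3b UMIs per Reg3g UMI were 1.53, 1.47 and 1.42 in ileal cells, 1.33, 1.33 and 1.32 in the proximal class and 1.18, 1.19 and 1.16 in mid-villus cells. In early cells the ratio was 1.08, 1.10 and 1.04, and in duodenal cells 1.04, 0.826 and 1.02. The steps from ileal to proximal to mid-villus to early cells were in the same direction in all 3 libraries, with intervals apart. Paneth cells had 0.588, 0.874 and 0.910, at levels of both genes under those of T cells, and T cells had 1.17, 1.14 and 1.20. The ratio also differed by region within a class. In early cells the ratio was 0.732, 0.801 and 0.899 in the most duodenal part and 1.25, 1.30 and 1.16 in the most ileal part.

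**Figure D3:**
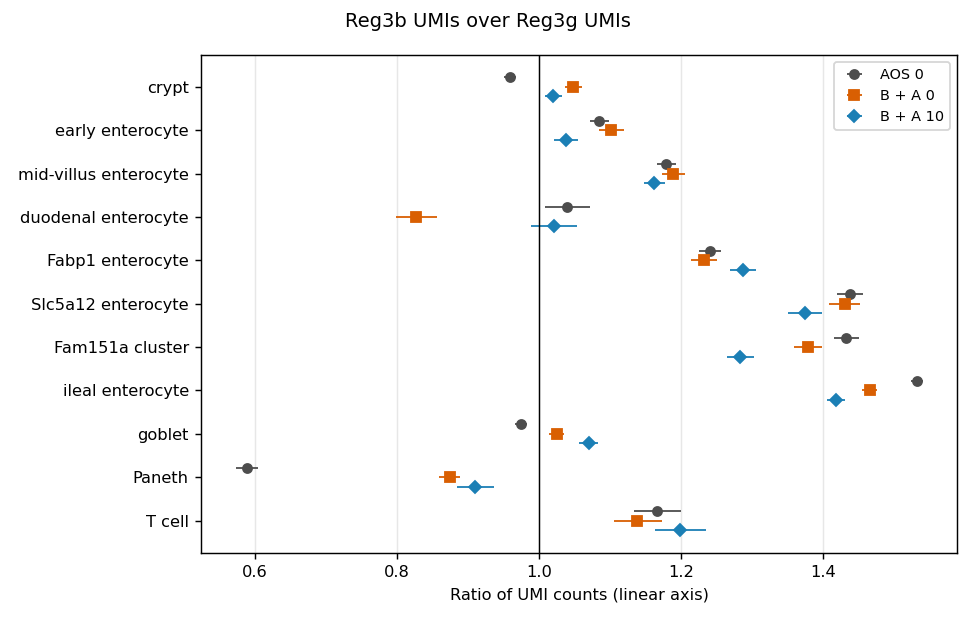
Reg3b UMIs per Reg3g UMI in each class, with 1 point per library and exact 95% intervals. Ileal cells lie at 1.42 to 1.53, early cells at 1.04 to 1.10 and Paneth cells at 0.588 to 0.910.

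Reg1, Reg3b and Reg3g differed less between bins of height on the villus than between the bins of region. For Reg3a this was so only in B + A 0. The orderings by height and by region used unlike numbers of genes. Enterocytes were ordered by 10 villus tip minus 10 villus bottom landmark genes and again split into 5 bins. All 10 bottom genes were on the early or mid-villus marker lists, and most tip genes were on the mature enterocyte list. These bins are therefore not independent of the classes either. The last bin over the first, as a mean of the 3 libraries, was 0.643-fold for Reg3b, 0.619-fold for Reg3g, 1.10-fold for Reg1 and 1.28-fold for Reg3a. For Reg1 the libraries did not share a direction. It went from 12.9 to 15.2 in AOS 0, from 16.3 to 19.6 in B + A 0 and from 21.6 to 19.8 in B + A 10, and with 10 bins the mean was 0.918-fold. Reg3b was highest in the middle bin of AOS 0 (567) and B + A 0 (571) and in the second bin of B + A 10 (453). Its last bin had 315, 305 and 237. The bins also differed in class. Early cells were 30.3%, 25.9% and 34.6% of the first bin, and the proximal class was 84.8%, 78.0% and 81.8% of the last. Ileal cells were 21.8%, 23.1% and 14.2% of the first bin and 4.78%, 4.40% and 3.31% of the last. The part of these classes in the values along the villus was not tested. Reg3a peaked in the fourth bin of each library with 8.84, 7.07 and 7.497. Among duodenal cells alone Reg1 was lower towards the tip, with 189, 189 and 171 in the lowest of 3 equal parts and 96.8, 115 and 96.2 in the highest. In ileal cells Reg3b was 920, 945 and 781 in the lowest part and 1030, 1071 and 688 in the highest, so that B + A 10 went the other way from both other libraries.

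**Figure D4:**
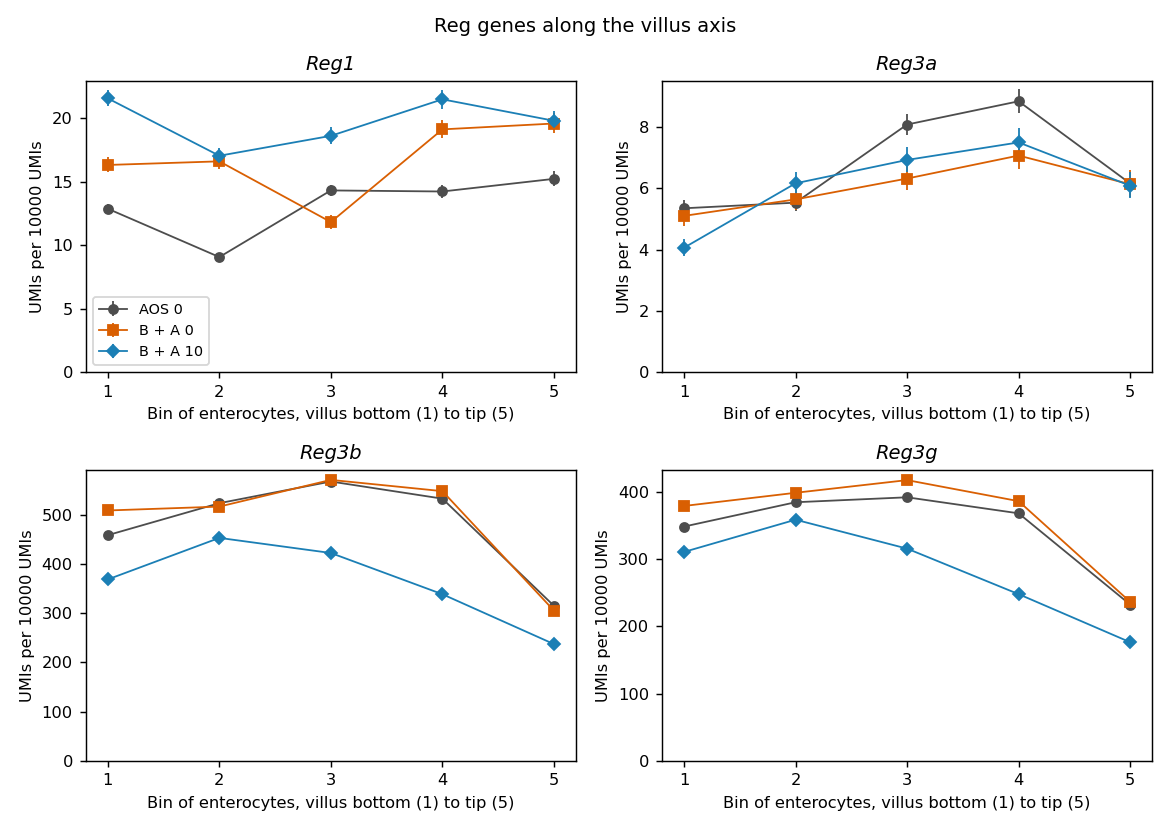
Level of each Reg gene (UMIs per 10000 UMIs) in 5 equal bins of enterocytes from villus bottom (1) to tip (5), by library, with exact 95% Poisson intervals. Reg3b and Reg3g are lowest in bin 5, at 237 to 315 for Reg3b, and Reg3a is highest in bin 4, at 7.07 to 8.84.

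Other genes shared these patterns. Likeness was the Pearson correlation of log2 levels over 33 points (11 classes in 3 libraries) with 9230 genes compared, and points of 1 class are not independent. For Reg1 the 5 most alike were 2210407C18Rik (0.899), Atp7b (0.893), Ckb (0.893), Ces2g (0.885) and Slc25a45 (0.879). Atp7b is a copper transporter and Ckb the brain-type creatine kinase, and 2210407C18Rik and Ckb were on the duodenal marker list used for naming. For Reg3a they were Enpep (0.949), Tgfbi (0.945), Aoc1 (0.943), Anpep (0.942) and Mep1b (0.928). Enpep, Anpep and Mep1b are peptidases of the brush border, and Aoc1 breaks down histamine. Mep1b was on the ileal marker list, and Enpep and Anpep were on the mature enterocyte list, which named no class. For Reg3b they were Slc51a (0.956), Nr1h4 (0.930), Bcl2l15 (0.923), Mgat4c (0.907) and Gm21885 (0.902). Slc51a is a subunit of the basolateral bile acid exporter and Nr1h4 is FXR, the bile acid receptor, while Slc51a, Bcl2l15 and Mgat4c were on the ileal marker list. Reg3g had Slc51a (0.942), Nr1h4 (0.929), Pld1 (0.917), Bcl2l15 (0.904) and Aoc1 (0.891). Among the members themselves Reg3b and Reg3g were at 0.982, Reg3a and Reg3b at 0.882, and Reg1 and Reg3b at 0.248.

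The remaining Reg genes were of other cells or hardly read. Reg4, a marker of secretory cells in the gut, had 20.7, 10.2 and 11.6 UMIs per 10000 in Paneth cells and 14.2, 10.4 and 8.15 in goblet cells, and 0.129, 0.354 and 0.243 in ileal cells. Reg3d had 49 UMIs in all 12653 cells and Reg2 had 4. Both were too scarce to be compared between classes.

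The comparisons between libraries ask what busulfan, and AOS given after it, did to these lectins. B + A 0 stands in both comparisons, so that they are not independent. Over all enterocyte classes none of the 4 members differed by 1.5-fold in B + A 0 over AOS 0 or in B + A 10 over B + A 0. Among all genes with at least 100 UMIs 3.82% did so for B + A 0 over AOS 0, and 2.72% for B + A 10 over B + A 0. Counts of 0 of 4 are no result against such shares. In B + A 10 over AOS 0, which combines both steps, Reg1 was 1.54-fold (1.51 to 1.58) and the other 3 members stayed within 1.5-fold, beside 6.92% of genes past it. Reg3b was 0.746-fold and Reg3g 0.804-fold there.

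Reg3b had 487, 494 and 363 UMIs per 10000 over all enterocytes. B + A 0 and AOS 0 thus lay close together, at 1.01-fold (log2 0.02, interval 0.02 to 0.03), and B + A 10 was 0.735-fold B + A 0 (log2 -0.44, interval -0.45 to -0.44). Of all genes tested 2.21% had a lower ratio in that comparison. Reg3g gave the same picture with 1.04-fold and 0.770-fold. The difference was uneven over classes. B + A 10 over B + A 0 for Reg3b was 0.771-fold in ileal cells and 0.679-fold in Slc5a12 cells, but 0.924-fold in Fabp1 cells, 0.913-fold in mid-villus cells, 0.889-fold in early cells and 1.06-fold in duodenal cells. Reg3g was 0.796-fold in ileal cells and 0.943-fold in early cells. In duodenal cells Reg3g was 0.862-fold (0.834 to 0.890), the opposite direction to Reg3b there.

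Ileal cells were fewer in B + A 10, at 8.96%, 7.70% and 6.93% of each library. Without ileal cells the pooled log2 ratio of B + A 10 to B + A 0 was -0.22 for Reg3b and -0.20 for Reg3g. Along the duodenal to ileal ordering the gap in Reg3b between B + A 10 and B + A 0 widened from the second bin (252 against 259) to the fourth (368 against 560.1). In the fourth bin it also had less Fabp6, with 119, 81.7 and 37.3 UMIs per 10000, and in the fifth 446, 447 and 419. The part of position along the gut, and of the lower depth of B + A 10, in this difference was not tested.

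Reg1 had 14.1, 18.2 and 21.8 UMIs per 10000 over all enterocytes, or 1.29-fold for B + A 0 over AOS 0 (log2 0.37, interval 0.33 to 0.40) and 1.20-fold for B + A 10 over B + A 0 (log2 0.26, interval 0.23 to 0.29). With classes weighted equally the log2 ratio of B + A 10 to B + A 0 was -0.065. The share of duodenal cells moved with it. With duodenal cells left out, the log2 ratio was 0.0065 for B + A 0 over AOS 0 and 0.53 for B + A 10 over B + A 0. Within duodenal cells the ratios were 1.13-fold and 0.860-fold, so that the library order of the pooled value was not that of the cells with the most Reg1. In early cells Reg1 was 1.68-fold higher in B + A 0 than in AOS 0, beside 5.43% of genes past 1.5-fold in that class. In mid-villus cells it was 0.802-fold in the same comparison and 1.57-fold in B + A 10 over B + A 0, beside 3.57% of genes. In Fabp1 cells it was 0.783-fold and 1.09-fold. In ileal cells Reg1 was 1.76-fold (5.4% of genes) and 1.59-fold (3.92%), on 99, 102 and 127 UMIs that lay under the level in T cells.

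**Figure D5:**
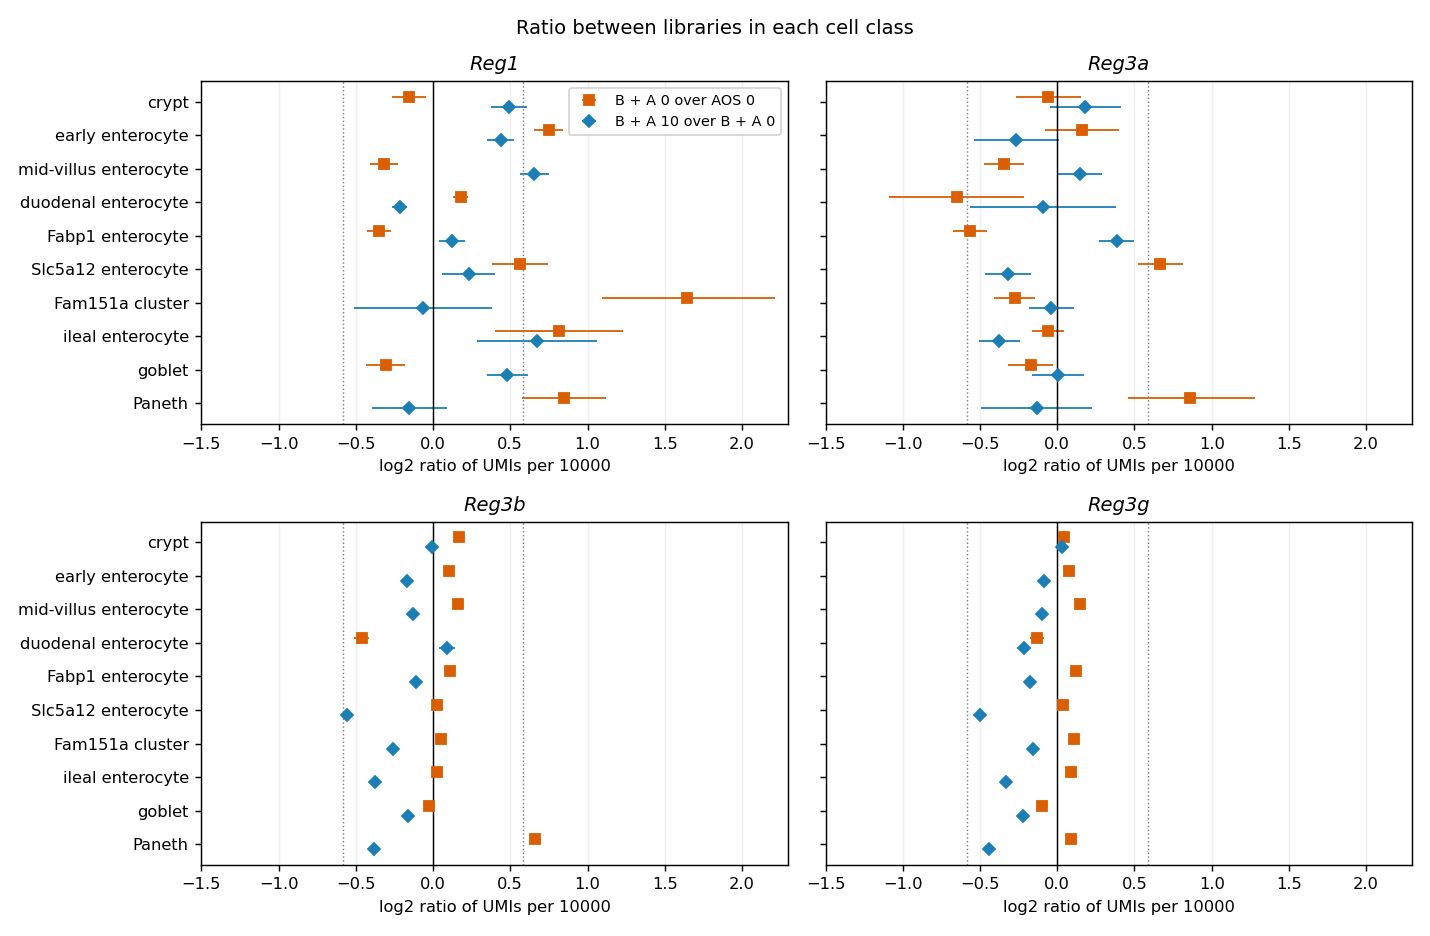
log2 ratio between libraries for each Reg gene in each class, B + A 0 over AOS 0 and B + A 10 over B + A 0, with 95% counting intervals and dotted lines at 1.5-fold. In ileal cells Reg3b stands at 0.03 and -0.38, inside the dotted lines. In early cells Reg1 stands at 0.75, past them, and at 0.44.

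Reg3a had 6.24, 5.63 and 5.67 UMIs per 10000 over all enterocytes, or 0.902-fold and 1.01-fold. The 2 proximal clusters went apart. In Fabp1 cells B + A 0 was 0.676-fold AOS 0, and in Slc5a12 cells it was 1.59-fold, where 11.3% of genes passed 1.5-fold. In duodenal cells it was 0.637-fold on 121 and 72 UMIs, beside 8.09% of genes, at levels under those of the T cell class. In Paneth cells Reg1 (1.80-fold), Reg3a (1.82-fold) and Reg3b (1.58-fold) were higher in B + A 0 than in AOS 0, while Reg3g was 1.06-fold. In that class 22.7% of genes passed 1.5-fold, all 4 members stood under the T cell level, and the 6 villus genes moved with them at 22.5, 69.0 and 52.6 UMIs per 10000.

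Of the upstream pathway, the receptor and adaptor genes were read at low levels in enterocytes. Il22ra1, the IL-22 receptor chain of epithelium, had 0.536, 0.412 and 0.462 UMIs per 10000 in Slc5a12 cells and 0.0918, 0.101 and 0.0659 in crypt cells. Stat3, the transcription factor downstream of it, had 0.673, 0.781 and 0.907 in ileal cells, and 1.003, 1.005 and 1.28 in Fabp1 cells. Stat3 was thus higher in Fabp1 cells than in ileal cells in each library, whereas Reg3b and Reg3g were highest in ileal cells. Signalling through IL-22 or STAT3 was not tested. Myd88 had 0.156, 0.128 and 0.112 in ileal cells, and Extl3, a proposed receptor of Reg proteins, 0.0481, 0.0565 and 0.0329. Saa1, an acute phase protein that also answers to IL-22, had 3.76, 7.01 and 5.37 in ileal cells against at most 0.421 in any other enterocyte class or cluster named here. It was itself on the ileal marker list used for naming, so its ileal peak is not independent of the class.

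Across all enterocytes the lists of pathway genes were compared at the same 1.5-fold. The median log2 ratio of all genes tested was -0.06 in the first comparison and 0.04 in the second, and the shares past 1.5-fold were the 3.82% and 2.72% given above. Of 11 IL-22, IL-6 and STAT3 pathway genes with enough UMIs, 1 was higher in B + A 0 than in AOS 0, the kinase gene Pim1 at 1.61-fold, and 0 of 10 differed between B + A 10 and B + A 0. The list medians were log2 0.10 and 0.04. Of 10 other IL-22 target genes, Saa1 (1.83-fold) and Nos2 (1.92-fold) were higher and Ubd (0.394-fold) lower in B + A 0. In B + A 10 over B + A 0 Ubd was 2.27-fold and Saa1 0.559-fold. Their medians were log2 0.16 and -0.10. None of 14 genes of microbe sensing and MyD88 passed in either comparison (medians 0.11 and -0.02), and none of 7 and 5 genes for EXTL3 and heparan sulfate synthesis did (medians -0.08 and 0.0078).

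Antimicrobial and lectin genes outside the family were counted in the same way. Of 19 with enough UMIs 8 were higher and 0 lower in B + A 0 than in AOS 0, led by Clps (3.46-fold), Retnlb (3.26-fold), Lyz1 (3.05-fold) and Itln1 (2.86-fold). Of 18 genes 0 were higher and 6 lower in B + A 10 than in B + A 0, led by Mptx2 (0.459-fold), Lyz1 (0.463-fold), Ang4 (0.487-fold) and Clps (0.571-fold). The medians were log2 0.16 and -0.12. These named genes are products of Paneth or goblet cells, and their levels in enterocytes were at most 4.90 UMIs per 10000. Paneth cells held 6.85%, 16.9% and 8.87% of all UMIs of the libraries, and goblet cells 22.3%, 23.2% and 20.7%. The part of free RNA in these genes was not tested. Reg4, a secretory gene too, was 2.24-fold in B + A 0 over AOS 0 (0.332 against 0.148) and 0.698-fold in B + A 10 over B + A 0. Of the villus bottom landmarks 1 of 10 passed, Gsdmc3 at 0.605-fold, and of the tip landmarks 2 of 8, Ada at 0.527-fold and Slc28a2 at 0.408-fold, all lower in B + A 0. None of 9 and 7 passed in the second comparison, and the medians of the bottom list were -0.20 and -0.09 and of the tip list -0.20 and 0.20.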

How the data were processed

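Small intestinal cells of 3 groups of mice, 1 library per group, had been sequenced with the 10x Chromium 3′ v2 kit. The submitters' processing notes name Cell Ranger 2.2.0 and mm10. The authors deposited 1 table of natural log values, ln(1 + UMIs per 10000), for all cells. Per the study's methods, cells with few genes and genes found in few cells had been removed, and Cell Ranger was set to call a fixed number of cells, so that nearly empty droplets may be among them. UMI counts were recovered from the deposited values, and 100% of 24333763 values above 0 came within 0.01 of a whole UMI. Groups were taken from the sample titles, since the source names of the busulfan libraries disagree with them.

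Libraries were joined with Seurat 5.3.0 (R 4.3.3), with 2000 variable genes, 20 dimensions and resolution 0.8, leaving out 7 Reg genes. A cluster was named when at least 3 of its 10 leading genes, 1 of them among the first 3, were on 1 marker list. This naming rule and the ordering from duodenal to ileal markers were chosen after the clusters and levels had been seen. Levels are summed UMIs with exact Poisson intervals, shares have exact binomial intervals at 1000 UMIs per cell, and ratios use the exact binomial of both libraries (Python 3.11.15, scipy 1.17.1). Neighbouring classes were said to differ only where intervals were apart in all 3 libraries, since 3 pairs allow no exact p under 0.25. The code for the ratios was tested on simulated data. No doublets were removed. The automatic Scrublet threshold called 15 cells, and leaving out the 5% of cells with the highest scores was an alternative.

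Named genes were the members, for each the 5 genes with the most similar pattern among genes with at least 300 UMIs (log2 of the level + 0.1), the other Reg genes, Extl3, Il22ra1, Stat3 and Myd88, and of each list at most 4 genes past 1.5-fold. Extl3 had too few UMIs for a ratio. Promoter sequences are from RefSeq on GRCm38.p6, where all 4 members matched. The members and all lists were chosen with earlier results of these data known.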

Additional observations from a re-analysis of the deposited data

Results flagged for a closer look

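Some differences between libraries pointed in opposite directions in different classes. These differences between classes were not tested, since each group has 1 library. Reg1 in B + A 0 over AOS 0 was 1.76-fold (1.32 to 2.35) in ileal cells and 0.783-fold (0.742 to 0.827) in Fabp1 cells. In B + A 10 over B + A 0 it was 1.59-fold (1.22 to 2.09) in ileal cells and 0.860-fold (0.833 to 0.888) in duodenal cells. Reg3a in B + A 0 over AOS 0 was 1.59-fold (1.44 to 1.76) in Slc5a12 cells and 0.637-fold (0.469 to 0.860) in duodenal cells. The ileal Reg1 and duodenal Reg3a levels lay under those of the T cell class.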

How the results depend on the processing

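Each group has 1 library, so differences between libraries and between treatments cannot be told apart, and the shallower B + A 10 library limits genes with few UMIs. No paired analysis was possible because no group has a second library. Of 104 recomputed log2 ratios over all enterocytes 51 moved by less than the counting interval, 52 moved by more and 1 reversed. The reversed one was Reg1 in B + A 10 over B + A 0, at -0.065 with classes weighted equally. In the list that follows, the first comparison is B + A 0 over AOS 0 and the second is B + A 10 over B + A 0, all in log2. With the mean of per-cell values, values were Reg1 0.43, Reg3b 0.036, Reg3g 0.079 for the first and Reg1 0.12, Reg3b -0.41, Reg3g -0.35 for the second. With totals without members, ribosomal protein and defensin genes, values were Reg3b 0.033, Reg3g 0.075 for the first and Reg1 0.22, Reg3b -0.48, Reg3g -0.42 for the second. With cells thinned to 1000 UMIs, values were Reg1 0.45, Reg3a -0.078, Reg3b 0.031, Reg3g 0.082 for the first and Reg1 0.10, Reg3b -0.40, Reg3g -0.36 for the second. With classes weighted equally, values were Reg1 0.16, Reg3b 0.028, Reg3g 0.074 for the first and Reg3b -0.27, Reg3g -0.23 for the second. With duodenal cells left out, values were Reg1 0.0065, Reg3b 0.052, Reg3g 0.085 for the first and Reg1 0.53 for the second. With ileal cells left out, values were Reg3b 0.074, Reg3g 0.076 for the first and Reg1 0.12, Reg3a 0.12, Reg3b -0.22, Reg3g -0.20 for the second. With cells assigned by their own marker scores, values were Reg3b 0.042, Reg3g 0.079 for the first and Reg1 0.31, Reg3b -0.43, Reg3g -0.37 for the second. With resolution 0.4, values were Reg3b 0.072, Reg3g 0.10 for the first and Reg3b -0.40, Reg3g -0.32 for the second. With resolution 1.5, values were Reg3a -0.27, Reg3b 0.0022, Reg3g 0.050 for the first and Reg3b -0.42, Reg3g -0.36 for the second. With high doublet scores left out, values were Reg3b 0.012 for the first and Reg3b -0.43 for the second. With the Fam151a cluster added, values were Reg3b -0.42, Reg3g -0.35 for the second. With libraries not joined, values were Reg3g -0.36 for the second. Keeping cells with at least 500 genes left all 8 ratios within their intervals. The settings that left out ileal or duodenal cells or added the Fam151a cluster were chosen after the data had been seen. Reg3b and Reg3g were lower in B + A 10 than in B + A 0 in every setting run. Of 24 levels 22 moved by less than the spread of the 3 libraries, and the others were duodenal Reg1 at 118 with cells assigned by their own scores, and proximal Reg3a at 8.93 at resolution 1.5. With at least 300 UMIs per gene the villus bottom list had 0 and the tip list 1 gene past 1.5-fold in the first comparison. Reg1 in the last over the first villus bin was 0.918-fold with 10 bins.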
